A study of Saccharomyces cerevisiae with 21 samples.

Results

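The small (40S) subunit of the cytosolic ribosome of budding yeast (Saccharomyces cerevisiae) is built from 1 ribosomal RNA and a set of proteins whose genes carry RPS symbols. All rows of the full-gene count table with a symbol made of RPS, a number and an optional A or B were taken: 56 of its 5823 genes, which encode 32 proteins. Of these proteins 24 come from a pair of duplicated genes, named A and B, and 8 from a single gene. All 56 genes passed the filter on low counts and matched the R64 annotation, in which 36 have 1 intron within the coding sequence and 20 have none.

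Ribosomal protein genes are among the most transcribed genes of a growing yeast cell, and their transcription is raised or lowered together as nutrients and growth change. The factors Rap1, Fhl1, Ifh1 and Sfp1 and the DNA-bending protein Hmo1 act at many of their promoters, and signals from the TOR and protein kinase A pathways reach the genes through them. Duplicated copies encode identical or closely related proteins, with 87.9% (RPS7) to 100.0% identical residues over the 24 pairs.

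RNA was measured in 21 libraries, 3 for each of 7 strains grown to log phase in a rich medium at 30 °C, by sequencing total RNA after removal of ribosomal RNA. Spt6 keeps histones on transcribed DNA and accompanies elongating RNA polymerase II, to which it attaches by tandem SH2 domains that contact the linker region of Rpb1, the catalytic subunit. The strains carried the spt6 alleles spt6-R, spt6-KK or their combination spt6-R,KK, or the rpb1 alleles rpb1-TPY, rpb1-FSP or their combination rpb1-TPY,FSP, and the unmutated strain (WT) was the comparison for each. The labels do not spell out the changed residues, which counts per gene cannot check. Nothing in the labels states that replicate libraries are independent cultures, so p-values cover the spread between libraries, which may be technical.

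Full-gene totals were 4860861 to 7803152 counts per library. The member with the fewest counts, RPS9A, had 43.2 CPM (counts scaled to the library size and a common total) in its lowest spt6-R,KK library. A second deposited table holds sense counts over the middle 70% of each gene. Both tables count the same libraries, so agreement between them is not independent support. Its total over the full-gene total was 0.986 to 1.02 in spt6-R, 0.989 to 0.996 in spt6-KK, 0.985 to 0.988 in spt6-R,KK, 0.986 to 1.01 in rpb1-TPY, 0.978 to 0.985 in rpb1-FSP, 0.961 to 0.996 in rpb1-TPY,FSP and 1.03 to 1.19 in WT. The WT libraries thus stand apart in how the tables relate, and calls of the named genes and pairs that changed on mid-gene counts are given with their mid-gene values.

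The small-subunit genes together took a smaller share of all counts in both double mutants and in 3 of the 4 single mutants. The share was 5.78%, 5.24% and 5.33% in the spt6-R libraries, 6.47%, 5.59% and 5.77% in spt6-KK, and 3.84%, 4.23% and 4.26% in spt6-R,KK. It was 6.27%, 7.36% and 6.70% in rpb1-TPY, 5.85%, 5.83% and 5.46% in rpb1-FSP, and 3.79%, 4.15% and 4.21% in rpb1-TPY,FSP, against 6.75%, 6.87% and 6.70% in WT. Every library of spt6-R, spt6-KK, spt6-R,KK, rpb1-FSP and rpb1-TPY,FSP lay below every WT library, and the rpb1-TPY libraries lay on both sides of WT.

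The mean share was 4.11% ± 0.236 in spt6-R,KK and 4.05% ± 0.229 in rpb1-TPY,FSP, against 6.77% ± 0.0870 in WT (SD, n = 3 each). The difference from WT was −2.67 percentage points in spt6-R,KK and −2.73 in rpb1-TPY,FSP, and exact two-sided permutation tests gave p = 0.1 for each of them (adjusted over the 6 mutants, 0.12). That is the smallest p that 3 libraries against 3 allow, and spt6-R, spt6-KK and rpb1-FSP reached it too. In rpb1-TPY the exact permutation test gave p = 0.9. In the mid-gene table the share was 4.05% to 4.48% in spt6-R,KK and 4.09% to 4.37% in rpb1-TPY,FSP, against 5.86% to 6.82% in WT. There the double mutants stayed clear of WT, while spt6-R (5.34% to 6.09%), spt6-KK (5.86% to 6.81%) and rpb1-FSP (5.75% to 6.20%) overlapped it.

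**Figure D1:**
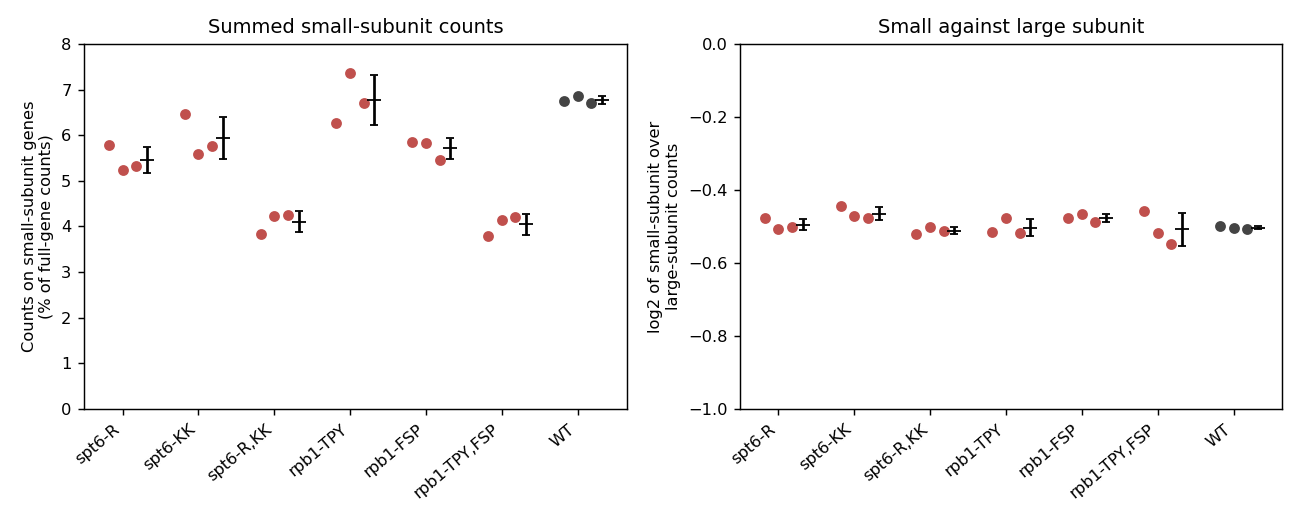
Left, counts on the 56 small-subunit genes as a percent of the full-gene counts of each library (points), with the mean and SD of 3 libraries beside them; the double-mutant libraries sit between 3.79% and 4.26% and the WT libraries between 6.70% and 6.87%. Right, log2 of the summed counts on small-subunit genes over those on 82 large-subunit genes, which lies between −0.55 and −0.44 in all 21 libraries.

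The 82 genes of large-subunit proteins moved alongside. The log2 of small-subunit over large-subunit counts averaged −0.51 in each double mutant and −0.50 in WT, and differed from WT by −0.01 and −0.00 in the double mutants (exact two-sided permutation p = 0.3 and 0.8). Its mean was −0.46 in spt6-KK and −0.48 in rpb1-FSP, where all 3 libraries lay above WT (exact two-sided permutation p = 0.1 each, adjusted over the 6 mutants 0.3). Counts are relative to the other RNA of a library, and in such bulk samples fewer cells of a kind and less RNA per cell cannot be told apart.

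Gene by gene, all 56 members were called lower in each double mutant by edgeR's quasi-likelihood test at an adjusted p under 0.05. The background was 17.5% of the 5618 genes tested called lower in spt6-R,KK and 16.4% in rpb1-TPY,FSP. The median log2 fold change of the members was −1.03 in spt6-R,KK and −1.08 in rpb1-TPY,FSP, while the median of all genes was 0.02 and 0.06. For every one of the 56 genes the CPM of the 3 double-mutant libraries lay below the 3 WT libraries, in both double mutants; over all genes this held for 22.5% in spt6-R,KK and 22.1% in rpb1-TPY,FSP. Of the large-subunit genes 79 of 82 were called lower in each, with medians of −1.03 and −1.09.

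Single mutants held smaller changes, and no member was called higher in any mutant. Of all genes 4.02% were called higher in spt6-R, 6.35% in spt6-KK, 19.3% in spt6-R,KK, 0.0534% in rpb1-TPY, 0.89% in rpb1-FSP and 18.8% in rpb1-TPY,FSP. In spt6-R 29 members were called lower (4.47% of all genes), with a median of −0.42 for the members and −0.02 for all genes. In spt6-KK 30 were called lower (6.94% of all genes), with medians of −0.39 and 0.05. In rpb1-FSP 15 were called lower (1.46% of all genes), with medians of −0.42 and −0.00. In rpb1-TPY no member was called (0% of all genes called lower); the members' median was −0.08, no member had an unadjusted edgeR p under 0.05, and DESeq2 called 0 as well.

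These single-mutant counts rest on values close to the threshold, and other settings moved them both ways. Without spt6-R library 2 or 3 the spt6-R count was 9, and without WT libraries 2 or 3 it was 10 or 15, while it was 49 when spt6-R and WT alone were fitted. Without spt6-KK library 2 or 3 the spt6-KK count was 9 or 15, without WT libraries 1 or 2 it was 19 or 14, and with library totals in place of TMM scaling it was 17. It was 34 without spt6-KK library 1 and 39 with spt6-KK and WT alone. In rpb1-FSP the count was 6 without rpb1-FSP library 2, 2 without library 3, and 7, 4 and 7 without WT libraries 1, 2 and 3. There it was 8 with library totals, 29 by DESeq2 and 40 with rpb1-FSP and WT alone. The share of all genes called at each of these settings is not given here. These counts thus show how far the calls moved, and not whether the members moved more than other genes. The direction was more even than the calls: 56 of 56 log2 fold changes were below 0 in spt6-R, 54 in spt6-KK and 55 in rpb1-FSP, against WT libraries that all 3 comparisons share. All 3 mutant libraries lay below all WT libraries for 55 members in spt6-R (19.6% of all genes), 46 in spt6-KK (17.4%), 51 in rpb1-FSP (14.5%) and 12 in rpb1-TPY (2.51%).

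**Figure D2:**
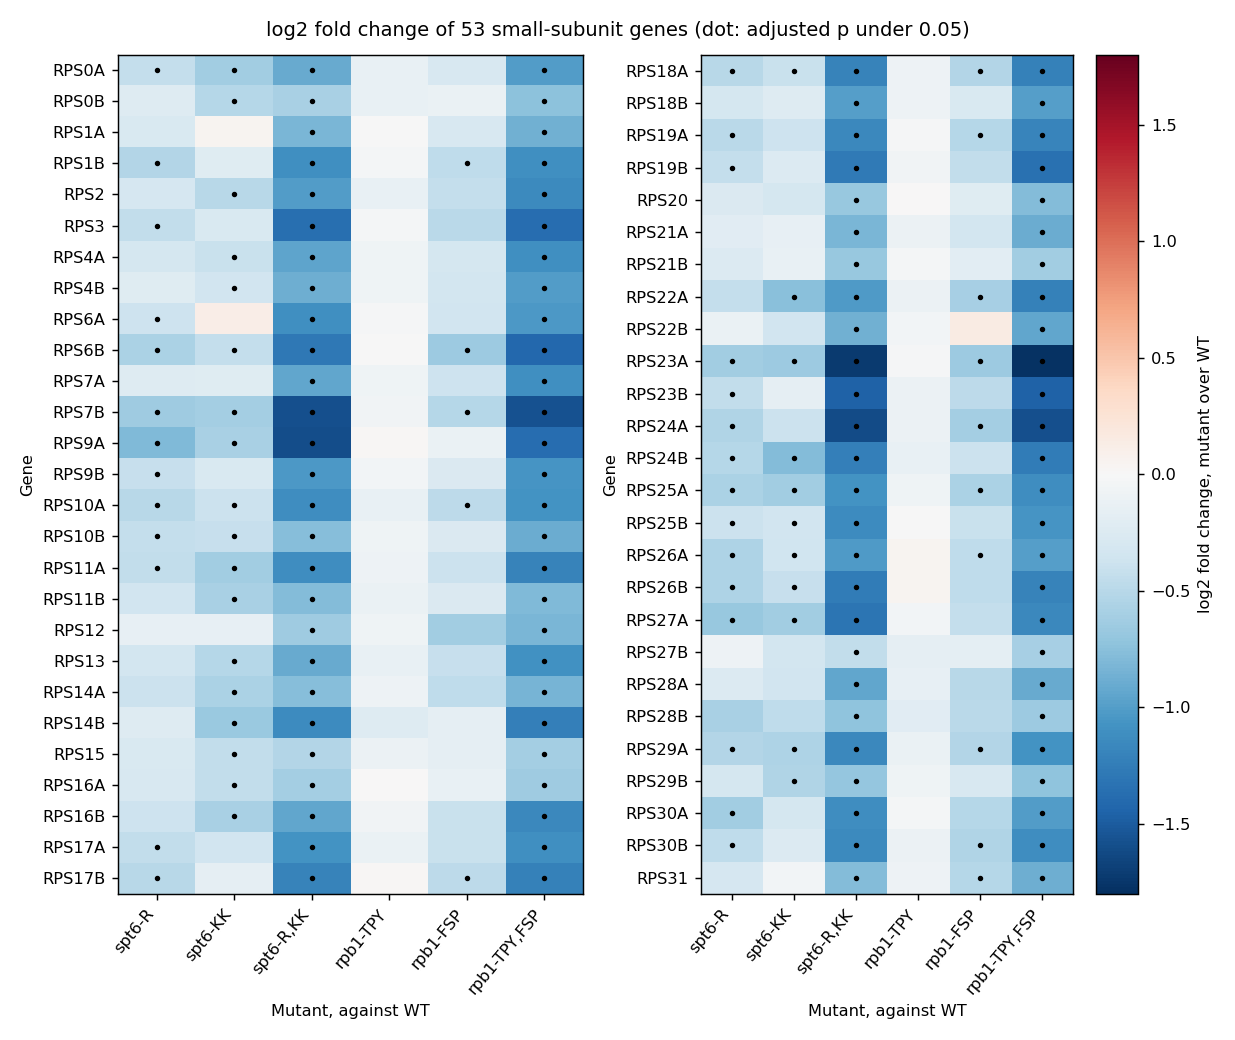
Colour gives the log2 fold change of each of 53 of the genes (rows) in each mutant over WT (columns), and a dot marks an edgeR adjusted p under 0.05. Both double-mutant columns are marked throughout, the rpb1-TPY column has no mark, and the spt6-R, spt6-KK and rpb1-FSP columns have 28, 29 and 15 among the genes shown.

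The members that fell furthest were alike in the double mutants. RPS23A (chrVII:726974-727730, plus strand) encodes a protein of the decoding centre. Its level was 281, 259 and 233 CPM in spt6-R,KK and 219, 279 and 245 CPM in rpb1-TPY,FSP, against 826, 846 and 868 CPM in WT. On the log2 scale it changed by −1.72 ± 0.13 (SE; edgeR adjusted p = 5.8e-09) in spt6-R,KK and −1.77 ± 0.13 (SE; edgeR adjusted p = 4.1e-09) in rpb1-TPY,FSP. No double-mutant library came near WT; in rpb1-TPY the level was 705, 948 and 846 CPM, which spans the WT libraries. Of the 50-base windows of its coding sequence 14.4% occur in RPS23B, so part of the split of reads between these copies is uncertain.

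RPS24A (chrV:306323-307196, plus strand) had 254, 235 and 227 CPM in spt6-R,KK and 207, 272 and 254 CPM in rpb1-TPY,FSP, against 747, 747 and 689 CPM in WT. It changed by −1.61 ± 0.13 (SE; edgeR adjusted p = 2.8e-08) in spt6-R,KK and −1.58 ± 0.13 (SE; edgeR adjusted p = 3.5e-08) in rpb1-TPY,FSP on the log2 scale. Its B copy shares stretches of 50 bases with it (38.2% of the 50-base windows of the A coding sequence occur in B), so the split of reads between the copies is uncertain. RPS9A (chrXVI:404950-406044, plus strand) encodes a protein near the mRNA entry site and was the least abundant member per coding length. It had 55.3, 46.5 and 43.2 CPM in spt6-R,KK, against 131, 174 and 131 CPM in WT, a change of −1.59 ± 0.17 (SE; edgeR adjusted p = 4.6e-07). RPS7B (chrXIV:443398-444315, minus strand) had 230.3, 243 and 208 CPM in rpb1-TPY,FSP, against 643, 684 and 687 CPM in WT, a change of −1.56 ± 0.11 (SE; edgeR adjusted p = 3.0e-09). All of these groups were separate, with the highest mutant library below the lowest WT library.

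At the other end stood RPS27B, RPS15, RPS0B and RPS21B, which fell least. RPS27B (chrVIII:147871-148669, minus strand), one of the genes of a zinc-finger protein, had 1164, 1273 and 908 CPM in spt6-R,KK and 719.6, 1197 and 1098 CPM in rpb1-TPY,FSP, against 1493, 1554 and 1507 CPM in WT. Relative to WT it changed on the log2 scale by −0.45 ± 0.15 (SE; edgeR adjusted p = 0.024) in spt6-R,KK and −0.60 ± 0.15 (SE; edgeR adjusted p = 0.0043) in rpb1-TPY,FSP. The call in spt6-R,KK was lost without WT library 2 (edgeR adjusted p = 0.069), WT library 3 (0.052) or spt6-R,KK library 3 (0.14). RPS0B (chrXII:242232-243349, plus strand), which encodes a protein needed for the last steps of small-subunit RNA processing, had 2789, 2841 and 2158 CPM in spt6-R,KK, against 3714, 3880.0 and 4099 CPM in WT, a change of −0.59 ± 0.12 (SE; edgeR adjusted p = 9.9e-04). RPS21B (chrX:156550-157273, minus strand) had 369, 488 and 489.7 CPM in rpb1-TPY,FSP, against 681, 717 and 674 CPM in WT, a change of −0.62 ± 0.13 (SE; edgeR adjusted p = 7.0e-04). Even for these genes no mutant library reached WT.

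The 8 single-copy genes have no second copy that could share or replace their output. RPS15 (chrXV:253149-253577, minus strand), needed for export of the young subunit from the nucleus, had 1421, 1742 and 1551 CPM in spt6-R,KK and 1259, 1646 and 1531 CPM in rpb1-TPY,FSP, against 2157, 2283 and 2327 CPM in WT. It changed by −0.52 ± 0.11 (SE; edgeR adjusted p = 8.5e-04) in spt6-R,KK and −0.61 ± 0.11 (SE; edgeR adjusted p = 2.0e-04) in rpb1-TPY,FSP. RPS3 (chrXIV:302680-303402, plus strand), a protein of the mRNA entry channel, had 944, 785 and 802 CPM in spt6-R,KK and 678, 882 and 948 CPM in rpb1-TPY,FSP, against 2161, 2113 and 2240.1 CPM in WT. It changed by −1.36 ± 0.13 (SE; edgeR adjusted p = 1.4e-07) in spt6-R,KK and −1.38 ± 0.13 (SE; edgeR adjusted p = 1.5e-07) in rpb1-TPY,FSP. These 2 genes mark the ends of the single-copy range in both double mutants.

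RPS2 (chrVII:277617-278381, plus strand), which takes part in decoding accuracy, had 2560.2, 2273 and 2136 CPM in spt6-R,KK and 1624, 2356 and 2373 CPM in rpb1-TPY,FSP, against 4556, 4505 and 4966 CPM in WT. It changed by −1.01 ± 0.13 (SE; edgeR adjusted p = 5.3e-06) in spt6-R,KK and −1.14 ± 0.13 (SE; edgeR adjusted p = 1.2e-06) in rpb1-TPY,FSP on the log2 scale, about as much as the median member. RPS12 (chrXV:1028194-1028625, minus strand) had 1037, 1176 and 973 CPM in spt6-R,KK and 559, 1108 and 1153 CPM in rpb1-TPY,FSP, against 1747, 1579.7 and 1661 CPM in WT. RPS13 (chrIV:579458-580452, plus strand), the single-copy gene with an intron, had 1197, 1125 and 836 CPM in spt6-R,KK and 662, 1074 and 1049.8 CPM in rpb1-TPY,FSP, against 1979, 1991 and 1944 CPM in WT. The first rpb1-TPY,FSP library was the lowest for both. It was also the lowest of its strain for most other members given here, though not for RPS7B or RPS9A, and for the summed small-subunit share (3.79%).

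RPS20 (chrVIII:75412-75777, plus strand), a protein of the subunit's head, had 1262, 1696 and 1512 CPM in spt6-R,KK and 1153, 1516 and 1504 CPM in rpb1-TPY,FSP, against 2433, 2419.7 and 2311 CPM in WT. RPS31 (chrXII:498947-499405, plus strand), which is made as a fusion with ubiquitin, had 1161, 1264 and 1334 CPM in spt6-R,KK and 943, 1289 and 1268 CPM in rpb1-TPY,FSP, against 2236, 2113 and 2118 CPM in WT. Log2 fold changes of RPS12, RPS13, RPS20 and RPS31 were −0.65, −0.91, −0.68 and −0.78 in spt6-R,KK, and −0.82, −1.09, −0.78 and −0.89 in rpb1-TPY,FSP. All 8 single-copy genes were called in both double mutants by edgeR, with adjusted p at most 0.0073.

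The single-copy genes had a median of −0.73 in spt6-R,KK and −0.85 in rpb1-TPY,FSP, and the 48 A or B copies had medians of −1.07 and −1.10. Their ranges overlapped widely: −1.36 to −0.52 for single-copy genes and −1.72 to −0.45 for A or B copies in spt6-R,KK. Genes with and without an intron differed little, with medians of −1.08 and −1.01 in spt6-R,KK and −1.10 and −1.03 in rpb1-TPY,FSP. Among the A or B copies alone these medians were −1.10 with an intron and −1.05 without in spt6-R,KK, and −1.10 and −1.08 in rpb1-TPY,FSP.

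Members of higher level fell less. Levels were set per coding length, as CPM per kb of coding sequence, and taken from the rpb1-TPY libraries so that they did not share libraries with the fold changes. Across the 56 genes, which share libraries and are not independent replicates, Spearman's rho of this level with the log2 fold change was 0.615 in spt6-R,KK and 0.567 in rpb1-TPY,FSP (Pearson's r 0.585 and 0.507 with the log2 of the level). Levels of copies that share sequence are uncertain: in rpb1-TPY the mid-gene CPM was 2.82 times the full-gene CPM for RPS6A, and it lay within 10% of it for 48 of the 56 genes. With mid-gene levels rho was 0.627 in spt6-R,KK and 0.567 in rpb1-TPY,FSP. Over the 36 genes left without the pairs that share 5% or more of their 50-base windows, rho was 0.511 and 0.379. Both of these settings were chosen after seeing the data. The 28 genes of lower level had a median of −1.14 in spt6-R,KK and −1.16 in rpb1-TPY,FSP, and the 28 of higher level −0.91 and −0.95. RPS20, RPS2, RPS27B and RPS15 were among the members of highest full-gene level per coding length in WT, with 6525, 6112, 6097 and 5259 CPM per kb, and RPS14B and RPS9A were last with 734 and 245.

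**Figure D3:**
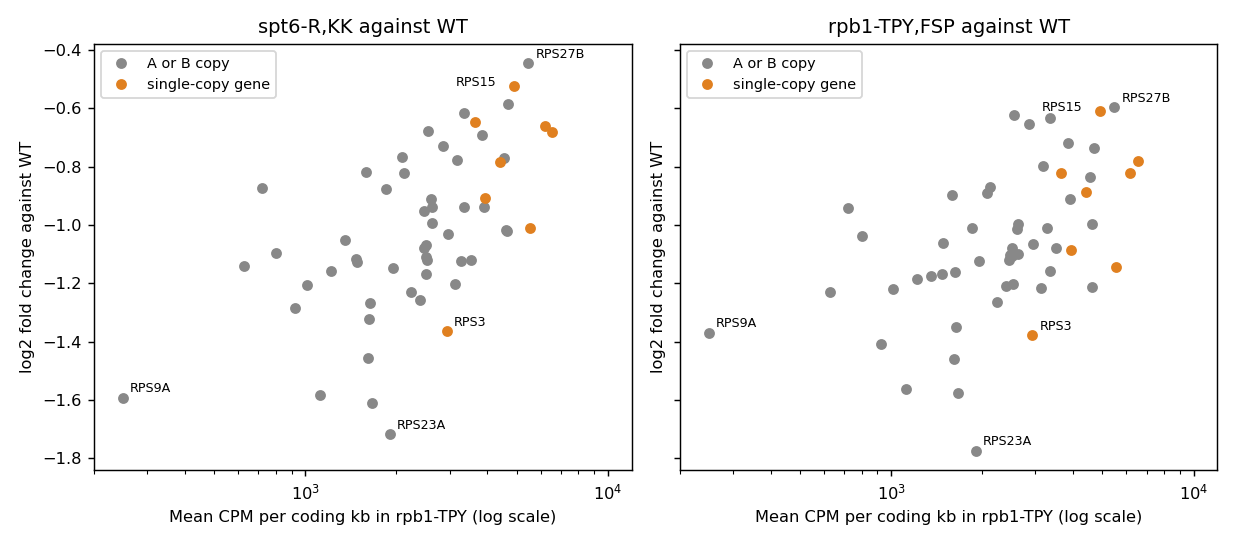
Each point is 1 of the 56 genes, with its mean CPM per kb of coding sequence in the 3 rpb1-TPY libraries (log axis) against its log2 fold change in each double mutant over WT. RPS9A is lowest in level and among the deepest falls, RPS27B and RPS15 are at the upper right, and single-copy genes (orange) lie mostly toward the right.

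When A and B counts were added, all 32 proteins had less mRNA in every double-mutant library than in every WT library. The log2 of the mean summed CPM over WT ran from −1.59 (RPS23) to −0.52 (RPS15) in spt6-R,KK, with a median of −0.98 over proteins. In rpb1-TPY,FSP it ran from −1.62 (RPS23) to −0.61 (RPS15), with a median of −1.06. The medians were −0.39 in spt6-R, −0.38 in spt6-KK, −0.42 in rpb1-FSP and −0.08 in rpb1-TPY.

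Within single mutants the deepest called falls were these. In spt6-R, RPS9A had 90.9, 72.2 and 87.5 CPM, against 131, 174 and 131 CPM in WT, a change of −0.80 ± 0.16 (SE; edgeR adjusted p = 0.0055), with an edgeR adjusted p of 0.056 without WT library 2. RPS27A had 289.5, 252 and 246 CPM in spt6-R, against 416, 452 and 389 CPM in WT, a change of −0.68 ± 0.12 (SE; edgeR adjusted p = 0.0023). Neither gene overlapped WT in spt6-R. In spt6-KK, RPS24B had 689, 507 and 556 CPM, against 971, 1036 and 988 CPM in WT, a change of −0.77 ± 0.13 (SE; edgeR adjusted p = 8.2e-04). RPS22A had 1436, 978 and 1069 CPM in spt6-KK, against 1987, 2011 and 1865 CPM in WT, a change of −0.75 ± 0.14 (SE; edgeR adjusted p = 0.0019). The first spt6-KK library was the highest of its 3 for both genes. In rpb1-FSP, RPS23A had 552, 554 and 503 CPM, against 826, 846 and 868 CPM in WT, a change of −0.66 ± 0.12 (SE; edgeR adjusted p = 0.004). RPS6B, a gene for a protein phosphorylated under TOR control, had 424, 434 and 405 CPM in rpb1-FSP, against 675, 620.5 and 683 CPM in WT, a change of −0.65 ± 0.12 (SE; edgeR adjusted p = 0.0051). The other copy holds 72.1% of the 50-base windows of RPS6B, 38.2% of those of RPS24B and 14.4% of those of RPS23A. Values of these single copies are thus uncertain. With both copies summed, the log2 change from WT was −0.50 for RPS6 and −0.57 for RPS23 in rpb1-FSP, and −0.60 for RPS24 in spt6-KK.

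Calls near the threshold changed with the mid-gene table. RPS3, RPS9B, RPS23B and RPS30B were called in spt6-R on full-gene counts and not on mid-gene counts, where they changed by −0.43 to −0.37 (edgeR adjusted p = 0.056 to 0.064). In spt6-KK the same held for RPS6B, RPS13 and RPS26A, with mid-gene changes of −0.49 to −0.37 (edgeR adjusted p = 0.053 to 0.058). RPS24A was called there on mid-gene counts alone (−0.39, edgeR adjusted p = 0.0425; full-gene −0.39, 0.0501). In rpb1-FSP it held for RPS19A, RPS26A, RPS29A, RPS30B and RPS31, with mid-gene changes of −0.52 to −0.45 (edgeR adjusted p = 0.059 to 0.063), and RPS6A was called on mid-gene counts alone (−0.44, edgeR adjusted p = 0.0497; full-gene −0.35, 0.0941). The sizes were thus close on either count: full-gene changes were −0.46 to −0.42 for the genes named in spt6-R, −0.51 to −0.36 in spt6-KK and −0.54 to −0.46 in rpb1-FSP. No called member changed direction. In both double mutants all 56 members were called on either count. For many members the 2 counts were nearly the same number, such as mid-gene over full-gene means of 0.994 for RPS2 and 0.999 for RPS15. Like results on both counts were therefore largely given in advance. In the authors' deposited table, from DESeq2, 56 of 56 members are below WT at an adjusted p under 0.05 in each double mutant on either count. On full-gene counts it lists 33 in spt6-R, 35 in spt6-KK, 31 in rpb1-FSP and 0 in rpb1-TPY. On mid-gene counts it lists 31, 36, 31 and 0 in the same strains. Its share over all genes was not worked out, so these counts stand without a background.

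Whether a double mutant differed from the sum of its single mutants was tested as an interaction on the log2 scale. For the rpb1 alleles 28 members were called, all lower than the sum (1.87% of all genes called in that direction and 1.32% in the other), and the members' median was −0.60, against 0.03 over all genes. For the spt6 alleles 1 member was called lower (0.249% of all genes, and 0.107% called higher), with a median of −0.28 for the members and −0.01 for all genes. There 18 members had an unadjusted edgeR p under 0.05, and DESeq2 called 5. The shares of all genes beside these last counts are not given here, so they are no result about the members. The rpb1 count was 17 without rpb1-TPY library 2, 15 without rpb1-TPY library 3, 15 without rpb1-FSP library 1 or 2, and 14, 17 and 18 without WT libraries 1, 2 and 3. It was 16 when the strains of the comparison alone were fitted. Whether the interactions of the rpb1 and spt6 alleles differ was not tested.

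For RPS9A the rpb1 interaction was −1.28 ± 0.23 (SE; edgeR adjusted p = 0.0045). RPS9A had 73.2, 49.0 and 46.4 CPM in rpb1-TPY,FSP, 139, 156 and 149 CPM in rpb1-TPY and 111, 145 and 148 CPM in rpb1-FSP, against 131, 174 and 131 CPM in WT. Only the double mutant lay apart from WT. RPS23A had a rpb1 interaction of −1.09 ± 0.17 (SE; edgeR adjusted p = 0.0029). The spt6 interaction called was that of RPS6A, at −0.85 ± 0.16 (SE; edgeR adjusted p = 0.015). RPS6A had 275, 262 and 269 CPM in spt6-R,KK, 453, 459 and 416 CPM in spt6-R and 646, 624 and 608 CPM in spt6-KK, against 555, 569 and 599.8 CPM in WT. Its spt6-KK libraries lay above WT, with a log2 difference of 0.12 ± 0.11 (SE; edgeR adjusted p = 0.48) that was not called. On mid-gene counts the RPS6A interaction missed the threshold (−0.73, edgeR adjusted p = 0.058), as it did without WT library 2 (0.068), spt6-R library 2 (0.066) or spt6-KK library 2 (0.052). RPS6A and RPS6B are nearly identical (99.2% of coding bases), 72.1% of the 50-base windows of RPS6A occur in RPS6B, and mid-gene counts of RPS6A were 2.75 times the full-gene counts, so the values of each copy are uncertain. In the rpb1 interaction, RPS1B, RPS14B, RPS16B and RPS18A were called on full-gene counts and not on mid-gene counts, where they had −0.80 to −0.60 (edgeR adjusted p = 0.052 to 0.072).

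The double mutants were also set against each other. No member was called between spt6-R,KK and rpb1-TPY,FSP by edgeR (0% of all genes called lower and 0.0356% called higher in spt6-R,KK), 0 had an unadjusted p under 0.05, and DESeq2 called 0. Same-numbered libraries of these strains deviated together, and with the replicate number as a block the count was also 0. The members' log2 fold changes of spt6-R,KK over rpb1-TPY,FSP ran from −0.22 to 0.22, with a median of 0.04. The common biological coefficient of variation was 0.154, and a p above the threshold does not show that the strains are alike.

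The balance between A and B copies was followed as log2(A/B) of the counts in each library and tested with limma over all 61 pairs of genes named A and B in the table, nearly all of them ribosomal protein genes. Of the 24 small-subunit pairs, 14 were called in spt6-R,KK (63.9% of all 61 pairs) and 16 in rpb1-TPY,FSP (65.6%). In single mutants 6 were called in spt6-R (31.1%), 10 in spt6-KK (45.9%), 9 in rpb1-FSP (42.6%) and 0 in rpb1-TPY (0%, limma; the second test below also called 0). The share of small-subunit pairs called was thus close to that of all pairs. Between spt6-R,KK and rpb1-TPY,FSP 0 pairs were called (0% of all pairs; 0 by the second test).

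The second test, edgeR's diffSpliceDGE, takes the spread of each copy between libraries in full, including what both copies share. Its p was read for the A copy alone, as the departure of A from a fit to both copies of the pair. The copy with more counts weighs more in that fit, so a shift is harder to call where A is the more abundant copy. This test called far fewer pairs: RPS27 and RPS9 in spt6-R,KK, RPS27 in rpb1-TPY,FSP and RPS27 in spt6-R. In spt6-KK, rpb1-TPY and rpb1-FSP it called none, and there 3, 0 and 0 pairs had an unadjusted p under 0.05. All pairs called by limma in a mutant had the same direction in it. All other pair calls, among them those of RPS27 in spt6-KK and rpb1-FSP, were thus made by limma alone.

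Some pair calls also turned on the table. On mid-gene counts limma no longer called RPS22 in spt6-R (−0.27, adjusted p = 0.11; full-gene −0.31, 0.043), spt6-KK (−0.30, adjusted p = 0.054; full-gene −0.41, 0.0045) and rpb1-TPY,FSP (−0.21, adjusted p = 0.15; full-gene −0.28, 0.036). The same held for RPS27 (−0.23, adjusted p = 0.061; full-gene −0.25, 0.039) and RPS6 (0.16, adjusted p = 0.07; full-gene 0.30, 0.006) in rpb1-FSP, for RPS24 (−0.17, adjusted p = 0.13; full-gene −0.31, 0.012) and RPS19 (0.13, adjusted p = 0.083; full-gene 0.16, 0.033) in rpb1-TPY,FSP, and for RPS9 in spt6-R,KK, whose values are below. Every pair called on full-gene counts kept its direction.

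Shifts went both ways. In spt6-R,KK 5 called pairs shifted toward A and 9 toward B, and in rpb1-TPY,FSP 7 and 9. Against the copy with more counts in rpb1-TPY, 10 of 14 shifted toward the more abundant copy in spt6-R,KK and 9 of 16 in rpb1-TPY,FSP. The median size of a shift over all 24 pairs was 0.25 in spt6-R,KK and 0.28 in rpb1-TPY,FSP on the log2 scale, so most shifts were small beside the fall of both copies. Of 14 pairs that share under 5% of 50-base windows 10 were called in each double mutant, and of the other 10 pairs 4 in spt6-R,KK and 6 in rpb1-TPY,FSP.

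**Figure D4:**
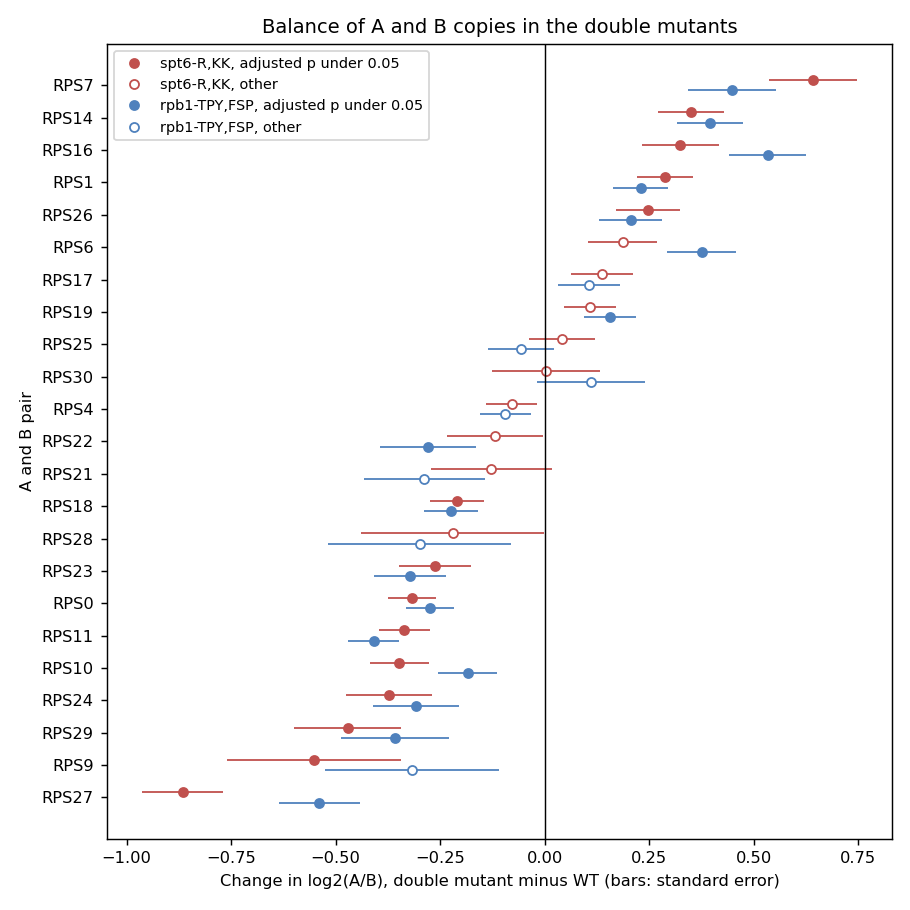
Change in log2(A/B) of 23 of the 24 small-subunit pairs in spt6-R,KK (red) and rpb1-TPY,FSP (blue) against WT, with standard errors; filled points have a limma adjusted p under 0.05. RPS27 lies furthest toward B, at −0.87 and −0.54, and RPS7 and RPS16 lie furthest toward A, at 0.64 and 0.53.

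RPS27 showed the largest shift in spt6-R,KK, and its copies are easy to tell apart. In rpb1-TPY,FSP the shifts of RPS27 and RPS16 (below) were of nearly equal size, −0.54 and 0.53, and on mid-gene counts −0.52 and 0.53, sizes that differ by far less than their standard errors. RPS27A (chrXI:158613-159212, plus strand) and RPS27B (chrVIII:147871-148669, minus strand) encode proteins that differ at 1 residue, while their coding sequences differ at 39 of 249 bases (84.3% identity) and share no 50-base window. Both coding sequences follow from the R64 reference, 5′ to 3′ and with the intron removed; capitals mark the bases at which the copies differ, and every window of 50 bases spans at least 1 of them.
RPS27A coding: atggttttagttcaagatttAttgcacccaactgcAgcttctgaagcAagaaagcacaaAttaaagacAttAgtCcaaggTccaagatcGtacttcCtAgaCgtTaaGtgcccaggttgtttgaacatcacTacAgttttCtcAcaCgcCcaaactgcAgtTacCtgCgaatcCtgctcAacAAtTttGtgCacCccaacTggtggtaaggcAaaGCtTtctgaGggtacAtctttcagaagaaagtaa
RPS27B coding: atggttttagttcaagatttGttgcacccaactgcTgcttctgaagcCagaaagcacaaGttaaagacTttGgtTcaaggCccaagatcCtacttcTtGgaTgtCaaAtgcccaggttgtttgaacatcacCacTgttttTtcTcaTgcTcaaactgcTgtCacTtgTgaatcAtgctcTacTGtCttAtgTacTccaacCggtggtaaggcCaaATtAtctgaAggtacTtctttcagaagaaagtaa

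RPS27A had 160.0, 193 and 151 CPM in spt6-R,KK and 162, 213 and 187 CPM in rpb1-TPY,FSP, against 416, 452 and 389 CPM in WT. Relative to WT it changed on the log2 scale by −1.32 ± 0.12 (SE; edgeR adjusted p = 1.1e-07) in spt6-R,KK and −1.16 ± 0.12 (SE; edgeR adjusted p = 4.0e-07) in rpb1-TPY,FSP, deeper in both than that of RPS27B. The log2(A/B) of RPS27 was −2.86, −2.72 and −2.59 in spt6-R,KK and −2.15, −2.49 and −2.55 in rpb1-TPY,FSP, against −1.84, −1.78 and −1.95 in WT. The ranges did not overlap, and the balance changed by −0.87 ± 0.10 (SE; limma adjusted p = 1.3e-07) in spt6-R,KK and −0.54 ± 0.10 (SE; limma adjusted p = 5.2e-05) in rpb1-TPY,FSP. It was −2.31, −2.43 and −2.59 in spt6-R, −2.11, −2.20 and −2.19 in spt6-KK, −1.74, −1.66 and −1.84 in rpb1-TPY and −2.19, −2.04 and −2.10 in rpb1-FSP. The shift toward B was called by limma in spt6-R (−0.58), spt6-KK (−0.31) and rpb1-FSP (−0.25) and not in rpb1-TPY (0.11).

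RPS7 shifted the other way. RPS7A (chrXV:505794-506767, plus strand) had 882, 794 and 819 CPM in spt6-R,KK and 586, 804 and 843 CPM in rpb1-TPY,FSP, against 1604, 1553 and 1626 CPM in WT. RPS7B had 226, 234 and 213 CPM in spt6-R,KK, against 643, 684 and 687 CPM in WT. Both copies fell, B further. The log2(A/B) of RPS7 was 1.96, 1.76 and 1.94 in spt6-R,KK and 1.35, 1.73 and 2.02 in rpb1-TPY,FSP, against 1.32, 1.18 and 1.24 in WT. It changed by 0.64 ± 0.10 (SE; limma adjusted p = 1.6e-05) in spt6-R,KK and 0.45 ± 0.10 (SE; limma adjusted p = 8.3e-04) in rpb1-TPY,FSP. The diffSpliceDGE test gave adjusted p = 0.50 and 0.69, read for the A copy, which is the more abundant one here. The first rpb1-TPY,FSP library was close to WT. The copies encode proteins that differ at 23 residues, the most of any small-subunit pair.

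RPS16 had copies of nearly equal count in WT. RPS16A (chrXIII:551928-552903, plus strand) had 865, 1041 and 894 CPM in rpb1-TPY,FSP, against 1402, 1445 and 1495 CPM in WT, and RPS16B (chrIV:306926-307789, minus strand) had 546, 757 and 736 CPM in rpb1-TPY,FSP, against 1503, 1498 and 1541 CPM in WT. In every rpb1-TPY,FSP library A exceeded B. The log2(A/B) of RPS16 was 0.66, 0.46 and 0.28 in rpb1-TPY,FSP and 0.05, 0.40 and 0.33 in spt6-R,KK, against −0.10, −0.05 and −0.04 in WT. It changed by 0.53 ± 0.09 (SE; limma adjusted p = 4.0e-05) in rpb1-TPY,FSP and 0.32 ± 0.09 (SE; limma adjusted p = 0.0037) in spt6-R,KK, and diffSpliceDGE gave adjusted p = 0.22 and 0.52. RPS9 was the third pair named for spt6-R,KK: its log2(A/B) was −3.89, −4.26 and −4.41 in spt6-R,KK, against −3.74, −3.32 and −3.84 in WT, a change of −0.55 ± 0.21 (SE; limma adjusted p = 0.026). The RPS9 call was lost on mid-gene counts (−0.25, limma adjusted p = 0.16) and without WT library 2 (0.12), spt6-R,KK library 2 (0.083) or spt6-R,KK library 3 (0.11).

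**Figure D5:**
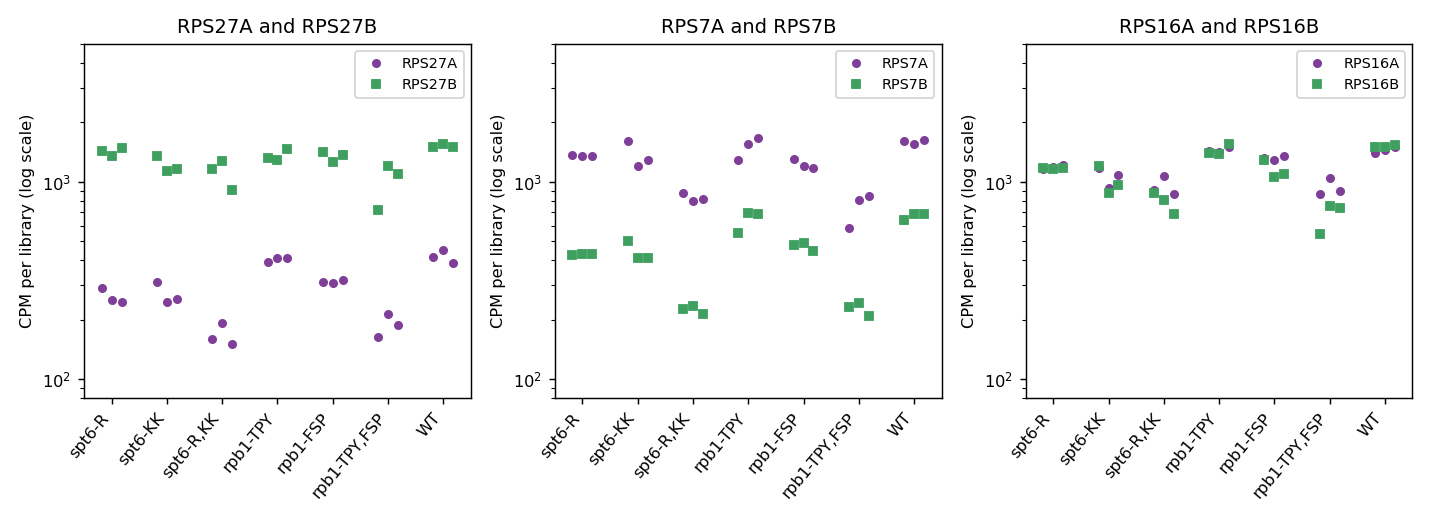
CPM of the A copy (purple circles) and B copy (green squares) of RPS27, RPS7 and RPS16 in each of the 21 libraries, by strain, on a log axis. RPS27A falls further than RPS27B in the double mutants, RPS7B further than RPS7A, and RPS16A exceeds RPS16B in all 3 rpb1-TPY,FSP libraries.

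Other pairs were called in single mutants too. RPS22 shifted toward B by −0.74 ± 0.11 (SE; limma adjusted p = 4.0e-05) in rpb1-FSP, where RPS22A was called lower (−0.59) and RPS22B was not called, with 343, 306 and 323 CPM, against 296, 310.4 and 271 CPM in WT. The intron of RPS22B holds the small nucleolar RNA gene SNR44, whose reads may enter the count of RPS22B; their part in the shift was not tested. RPS6 shifted toward A by 0.56 ± 0.08 (SE; limma adjusted p = 8.2e-06) in spt6-KK, with the limit on telling its copies apart given above. RPS18 shifted toward B and RPS1 toward A in all mutants but rpb1-TPY, by at most 0.25 and 0.29 on the log2 scale.

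The promoters of RPS27 are shown from R64, from 250 bases before to 50 after the coding start, 5′ to 3′ on the coding strand. Capitals mark any match, on either strand, to 4 motifs searched: the Rap1 core (CACCC, any 2 bases, ACA), the Abf1 core (TC, any 7 bases, ACG), the A/T tract TTTTTTTT and GATGAG, the core of the PAC element. RPS27A (chrXI:158363-158662, plus strand) holds no match and RPS27B (chrVIII:148620-148919, minus strand) holds 1 GATGAG, read on the other strand.
RPS27A promoter: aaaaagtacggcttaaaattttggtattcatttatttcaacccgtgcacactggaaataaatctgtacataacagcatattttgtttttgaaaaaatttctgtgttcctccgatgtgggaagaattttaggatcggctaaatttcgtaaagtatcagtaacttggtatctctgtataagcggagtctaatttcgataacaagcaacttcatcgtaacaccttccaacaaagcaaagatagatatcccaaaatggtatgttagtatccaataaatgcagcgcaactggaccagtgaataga
RPS27B promoter: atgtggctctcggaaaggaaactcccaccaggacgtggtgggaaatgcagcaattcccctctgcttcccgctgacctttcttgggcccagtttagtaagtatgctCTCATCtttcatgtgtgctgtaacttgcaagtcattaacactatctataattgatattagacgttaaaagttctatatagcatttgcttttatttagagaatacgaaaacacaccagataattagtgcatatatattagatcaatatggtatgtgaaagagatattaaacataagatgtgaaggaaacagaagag

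Over the 56 promoters of this length, the Rap1 core was found in 1 (1.79%; 1.03% of all 6001 promoters), the Abf1 core in 19 (33.9%; 30.1%), the A/T tract in 10 (17.9%; 32.1%) and GATGAG in 7 (12.5%; 20.4%). A second window, the next 300 bases upstream, was added after the first had been searched. There the Rap1 core was found in 10 of 56 (17.9%), in 15 of 82 large-subunit genes (18.3%) and in 88 of all 6000 windows (1.47%). The other motifs in that window were in 17 of the 56 (Abf1 core; 29.4% of all windows), 14 (A/T tract; 21.7%) and 6 (GATGAG; 16.2%). A match is a string of letters and not a measured binding site, and its absence says only that these letters are not in the window.

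The 10 genes with a Rap1 core in the farther window were RPS4B, RPS7A, RPS10A, RPS11B, RPS16A, RPS16B, RPS17B, RPS21B, RPS23B and RPS24A, which include both RPS16 copies and 1 copy of RPS7. The RPS16 windows are printed to show it, with the core in capitals; they were chosen after the values were seen. RPS16A (chrXIII:551378-551677, plus strand) holds 2 cores in opposite orientation and RPS16B (chrIV:308040-308339, minus strand) holds 1.
RPS16A upstream: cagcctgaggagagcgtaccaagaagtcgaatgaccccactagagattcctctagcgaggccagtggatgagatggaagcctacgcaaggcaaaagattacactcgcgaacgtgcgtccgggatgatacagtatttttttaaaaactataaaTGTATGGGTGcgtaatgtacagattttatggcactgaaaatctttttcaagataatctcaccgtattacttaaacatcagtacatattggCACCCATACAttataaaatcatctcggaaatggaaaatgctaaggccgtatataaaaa
RPS16B upstream: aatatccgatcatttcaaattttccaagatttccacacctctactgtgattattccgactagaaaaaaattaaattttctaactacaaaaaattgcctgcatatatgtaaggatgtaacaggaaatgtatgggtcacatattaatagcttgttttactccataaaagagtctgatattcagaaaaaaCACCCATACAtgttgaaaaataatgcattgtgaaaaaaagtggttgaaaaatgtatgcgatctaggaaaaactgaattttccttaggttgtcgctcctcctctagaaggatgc

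Genes that act on or with these members were followed as lists. Of 21 regulators of ribosomal protein genes, 4 were called lower and 4 higher in spt6-R,KK, and 2 lower and 3 higher in rpb1-TPY,FSP, with medians of 0.08 and 0.01. Over all genes 17.5% were called lower and 19.3% higher in spt6-R,KK, and 16.4% and 18.8% in rpb1-TPY,FSP, so the counts in the list are near or below the background and are no result about the list. HMO1 had 72.6 ± 13.1 CPM in spt6-R,KK and 71.9 ± 3.25 CPM in rpb1-TPY,FSP, against 166 ± 4.93 CPM in WT (SD, n = 3 each), changes of −1.19 ± 0.13 and −1.21 ± 0.13 (SE; edgeR adjusted p = 1.1e-06 and 8.7e-07). It fell about as much as the median member. REB1 fell in both (−0.70 and −0.50), and all 3 of REB1, ABF1 and CBF1 encode general regulatory factors that bind promoters. ABF1 (−0.54 and −0.33) and CBF1 (−0.45 and −0.29) were called lower in spt6-R,KK and missed the threshold in rpb1-TPY,FSP, and none of the 21 was called between these strains. RIM15 (0.73 and 0.74) and YAK1 (0.82 and 0.72), kinases active when nutrients fail, and CRF1 (1.33 and 1.38), a corepressor of these genes, rose in spt6-R,KK and rpb1-TPY,FSP. BCY1, the inhibitory subunit of protein kinase A, was called higher in spt6-R,KK (0.31) and missed the threshold in rpb1-TPY,FSP (0.24). RAP1 (−0.19 and −0.23), FHL1 (−0.19 and −0.10), IFH1 (−0.18 and −0.08) and SFP1 (0.22 and 0.27) were not called in either.

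Of 20 genes for assembly of the small subunit and chaperones of its proteins, 9 were called lower in the spt6-R,KK strain, 7 in rpb1-TPY,FSP, 5 in spt6-R and 0 in the other single mutants, and none higher. Over all genes 17.5%, 16.4% and 4.47% were called lower in spt6-R,KK, rpb1-TPY,FSP and spt6-R. Their medians were −0.39 in spt6-R,KK and −0.16 in rpb1-TPY,FSP, smaller than those of the members. PNO1 (−0.81 and −0.59), BMS1 (−0.83 and −0.75) and TSR2 (−0.85 and −0.55), the chaperone of Rps26, fell in spt6-R,KK and rpb1-TPY,FSP. ASC1, a protein bound to the small subunit but outside the RPS names, fell by 0.91 and 1.16 on the log2 scale in spt6-R,KK and rpb1-TPY,FSP, close to the members' medians.

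Of 15 general stress genes, 10 were called higher in the spt6-R,KK strain, 8 in rpb1-TPY,FSP, 2 in spt6-R and 1 in spt6-KK, where 1 was called lower. Over all genes 19.3%, 18.8%, 4.02% and 6.35% were called higher in these strains, and the single gene in spt6-KK is near that share. Their summed level was 1069.7 to 1577 CPM in spt6-R,KK and 804 to 1294 CPM in rpb1-TPY,FSP, against 483 to 793 CPM in WT. CTT1, the cytosolic catalase, rose by 1.43 and 1.03 on the log2 scale and TPS1, of trehalose synthesis, by 0.84 and 0.72 in spt6-R,KK and rpb1-TPY,FSP. The part of such a shift in the fall of the members was not tested. Of markers of the yeast mating types, the 5 specific to a cells summed to 2093 to 2978 CPM in spt6-R,KK and 2097 to 2830.3 CPM in rpb1-TPY,FSP, against 1594 to 1785 CPM in WT, with 3 of 5 called higher in each. The alpha-specific list, 3 of 4 tested, summed to 64.4 to 70.2 CPM in spt6-R,KK and 67.9 to 87.7 CPM in rpb1-TPY,FSP, against 25.1 to 37.8 CPM in WT, with 3 of 3 called higher in each; their part in the members' values was not tested.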

How the data were processed

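Total RNA depleted of ribosomal RNA was sequenced in 21 libraries. Per the submitters' processing notes, the authors used cutadapt 1.16, STAR 2.6.1b, featureCounts 1.6.3 of Subread and DESeq2 1.22.2, with the sacCer3 (R64) genome. The authors deposited raw counts per gene, over the full gene and, as sense reads, over its middle 70%, and a table of DESeq2 results with log2 fold changes and adjusted p-values. From the deposited counts, edgeR 4.0.16 in R 4.3.3 (TMM scaling, filterByExpr, quasi-likelihood test, all 7 strains in 1 fit, Benjamini-Hochberg adjustment, threshold 0.05) tested 5618 genes and left out 205; DESeq2 1.42.0 was an alternative. Standard errors of edgeR log2 fold changes were derived from the fold change and its F statistic. CPM were computed from the deposited counts and TMM library sizes, and shares from unscaled totals. The A and B balance was log2 of the count ratio with a pseudocount of 0.5, tested with limma 3.58.1 where both copies averaged 20 counts or more. Shares were compared by exact permutation in SciPy 1.17.1. The fits were checked on simulated data.

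The members, lists, rules and tests were chosen with earlier results of these data known. Members given in full were the 3 with the largest and the 3 with the smallest change in each double mutant, the single-copy genes, the 2 with the largest called change in each other comparison, and the 3 pairs with the largest called change of balance in each double mutant; members whose call changed with mid-gene counts were named with those values. A few genes are counted but not reported by name here. Gene positions, introns, coding sequences and promoters were read from the R64 reference genome and its annotation. Deviations of same-numbered libraries from their strain means correlated by 0.196 on average between mutants (other numbers −0.0954), with every correlation over 0.1 in 9 of 15 pairs of strains, among them the double mutants (0.367, 0.442 and 0.375). Between WT and a mutant they correlated by −0.0557 on average, and in 0 of 6 pairs was every one over 0.1. So the numbers paired the double mutants with each other and no mutant with WT; the labels do not say what a number marks. Totals of 4860861 to 7803152 counts per library set the precision.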

Additional observations from a re-analysis of the deposited data

Results flagged for a closer look

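The double mutants were compared with the sum of their single mutants, and 5 values stood out because the effect of one allele differed with the other allele present. For the rpb1 alleles 28 members had such a difference (1.87% of all genes were called lower than the sum). Among them were RPS9A (−1.28 on the log2 scale) and RPS23A (−1.09), genes for proteins of the mRNA entry site and the decoding centre. For the spt6 alleles 1 member had one, RPS6A (−0.85), beside 0.249% of all genes called lower than the sum. All of them were lower in the double mutant than the sum of the single mutants. Of the 28 rpb1 calls, 9 were kept whichever library was left out, and 23 were also made on mid-gene counts. The RPS6A value carries the limit on telling its copies apart, and the spt6 count was 0 on mid-gene counts.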

How the results depend on the processing

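The 56 calls in each double mutant were the most stable: leaving out each library in turn gave 54 to 56 in spt6-R,KK and 55 to 56 in rpb1-TPY,FSP. Leaving out each library gave 9 to 24 members in spt6-R, 9 to 34 in spt6-KK, 2 to 10 in rpb1-FSP, 0 to 2 for the spt6 interaction and 14 to 32 for the rpb1 interaction. The median ran from −0.33 to −0.18 for the spt6 interaction and from −0.045 to 0.15 between the double mutants. Pairs called ran from 3 to 6 in spt6-R, 7 to 10 in spt6-KK, 4 to 8 in rpb1-FSP and 0 to 2 between the double mutants. They ran from 13 to 15 in spt6-R,KK and from 11 to 16 in rpb1-TPY,FSP. Calls kept whichever library was left out were 12 of 14 in spt6-R,KK and 10 of 16 in rpb1-TPY,FSP. In single mutants they were 2 of 6 in spt6-R, 7 of 10 in spt6-KK and 4 of 9 in rpb1-FSP. The share of rpb1-TPY minus WT ran from −0.29 to 0.26 percentage points, and was −0.39 with TMM library sizes.

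Scaling by library totals gave 17 members and a median of −0.19 in spt6-KK, 8 and −0.31 in rpb1-FSP, medians of −0.83 in spt6-R,KK and −0.84 in rpb1-TPY,FSP, and 2 members for the spt6 interaction. With that scaling the median of all genes was 0.25 in spt6-KK, 0.21 in spt6-R,KK, 0.11 in rpb1-FSP and 0.32 in rpb1-TPY,FSP. Fitting only the strains compared gave 49 members in spt6-R, 40 in rpb1-FSP, 4 for the spt6 interaction and 16 for the rpb1 interaction. DESeq2 gave 29 in rpb1-FSP and 5 for the spt6 interaction, and mid-gene counts gave 0 for the spt6 interaction. With library 1 of spt6-R,KK and of rpb1-TPY,FSP both dropped, the spt6 interaction had 4 and the median between these strains was −0.048. The diffSpliceDGE test called 1 pair in spt6-R, 0 in spt6-KK, 2 in spt6-R,KK, 0 in rpb1-FSP and 1 in rpb1-TPY,FSP. With the replicate number as a block, 2 members were called for the spt6 interaction, 31 in spt6-R, 31 in spt6-KK, 18 in rpb1-FSP, 28 for the rpb1 interaction, 56 in each double mutant and 0 between the double mutants, whose libraries the numbers paired. Counts by setting are given without the share of all genes called at the same setting, so they are no result about the members. The causes of these differences were not tested. With 3 libraries a strain, changes near the threshold are not resolved, and the deposited counts give no transcripts per cell.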
